A study of Mus musculus with 4 samples.

Results

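Transcript levels of 10 nuclear envelope genes were examined in Tomato-positive cells sorted from regenerated mouse olfactory epithelium of lamin B1 mutants and controls. The genes were chosen by name, as members of the LEM-domain family (Emd, Tmpo, Lemd2, Lemd3 and Ankle2), of the LINC complex (Sun1, Sun2, Syne1 and Syne2), and as a protein that binds LEM-domain proteins (Gmcl1). They were 10 of the 23337 gene symbols in the count tables, taken by symbol with no threshold on a measured value. All 10 passed the filter on low counts and were among the 15438 genes tested.

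The control cells were Lmnb1+/- and the mutant cells Lmnb1-/-, with 2 mice of each genotype and 1 mouse per sample. In both genotypes a cytokeratin 5 promoter drove Cre recombinase (K5Cre) in horizontal basal cells, the resident stem cells of this tissue, where it deleted 1 (control) or both (mutant) alleles of Lmnb1 and switched on the Tomato reporter R26Ai9. The paper reports that a small minority of the Tomato-positive cells in mutant tissue still stained for lamin B1. The paper gives a mixed background for all mice, with the K5Cre and floxed Lmnb1 lines backcrossed to B6 for several generations. The epithelium was damaged with 2 injections of methimazole at 50 mg/kg, and 4 weeks were allowed for regeneration. Tomato thus marked horizontal basal cells and whatever they had produced within an otherwise unrecombined tissue. Samples fell into 2 experimental groups, each with 1 control and 1 mutant littermate that shared sex, age, treatment and library work. The experimental groups differed from each other in parents, age, sex and treatment, and the paper also names batch. It gives sample preparation and sequencing as the same within a group. None of these differences between groups can be told apart here. The mice were adults, for which the paper gives a range of ages. The age and sex of each mouse were not given in the sources used here. Samples are named by genotype and experimental group (control 1, control 2, mutant 1 and mutant 2).

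The LEM domain is a short fold found in proteins of the inner nuclear membrane, and it binds the chromatin protein barrier-to-autointegration factor (BAF, gene Banf1). Many of these proteins also bind lamins. The LINC complex spans both membranes of the nuclear envelope, with SUN proteins in the inner membrane joined in the space between the membranes to nesprins in the outer membrane, which in turn hold actin, dynein, kinesin or plectin. In neural tissue this bridge is known for moving and anchoring nuclei.

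Reads assigned to genes numbered 14833396 to 23704638 per sample, and the 10 members together took 0.127% to 0.129% of them. The lowest count of any member in any sample was 392. Alignments that were not unique numbered 67710764 in control 1 and 62182762 in mutant 1. In control 2 and mutant 2 they numbered 10308536 and 6757456. In mutant 1, reads outside genes made up 39.4% of uniquely aligned reads compared with 22.1% to 24.9% in the other samples, and fewer genes had 0 counts (1603 compared with 5173 to 6053). Lmnb1, the targeted gene, was at 20.6 CPM in control 1 and 14.1 CPM in its littermate mutant 1, and at 18.8 CPM in control 2 and 10.1 CPM in mutant 2, where CPM is the count scaled to the library total after TMM factors. Both mutants were below both controls, but the difference did not pass the threshold (log2 fold change -0.72, SE 0.31, edgeR adjusted p = 0.195). Counts cover all exons of Lmnb1, of which only exon 2 is floxed, so the level does not measure the deletion directly.

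The sorted cells were a mixture. Of all tested genes, 4.30% passed the threshold (edgeR adjusted p under 0.05) as lower in mutant cells and 1.28% as higher. Of the markers of mature olfactory neurons, 12 of 12 passed as lower. Their summed level was 18510 and 8258 CPM in the controls and 10240 and 2449 CPM in the mutants, and Omp alone was at 9665, 3267, 5359 and 912.2 CPM in control 1, control 2, mutant 1 and mutant 2. Of 9 progenitor and cell cycle markers, 5 passed as higher (Mki67, Top2a, Ccnb1, Mcm2 and Kit), and all 9 had positive log2 fold changes. Their summed levels were 244.7 and 279.9 CPM in the controls and 389.4 and 473.6 CPM in the mutants. Of 7 horizontal basal cell markers, 2 passed as higher (Krt15 and Egfr), and all 7 had positive log2 fold changes. Their summed levels were 2171 and 1563 CPM in the controls and 3078 and 2062 CPM in the mutants. The 8 sustentacular cell markers (summed levels 6110 and 9950 CPM in controls, 7964 and 13850 CPM in mutants) and the 8 leukocyte markers (543.7 and 784.1 CPM in controls, 309.6 and 801.3 CPM in mutants) had no gene past the threshold. Log2 fold changes were positive for 7 of the sustentacular and 2 of the leukocyte markers. The leukocyte sum was carried by Lyz2 (223.5 and 693.2 CPM in controls, 154.4 and 583.8 CPM in mutants), whereas the 7 other leukocyte markers were higher in control 1 than in control 2, and the median log2 ratio of the 8 was -1.83 in experimental group 1 but 1.13 in group 2. Of 8 immature neuron markers, 1 passed as lower (Dcx), and 7 had negative log2 fold changes. Their summed levels were 2245 and 1719 CPM in the controls and 1817 and 1481 CPM in the mutants. Cd52, a leukocyte marker, was at 0 counts in control 2, and no other marker was at 0 in any sample. In bulk samples of this kind, fewer cells of a type and less RNA per cell cannot be told apart, and the part of these markers in the differences given for the nuclear envelope genes was not tested.

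Compared per length, as CPM per kb of exon averaged over the 4 samples, the members formed a wide range of levels. Sun1 was highest at 32.9 CPM per kb, followed by Tmpo (24.4), Ankle2 (19.1), Emd (17.1), Sun2 (15.7), Lemd2 (14.5), Syne2 (12.3), Lemd3 (9.09), Gmcl1 (6.67) and Syne1 (0.996 CPM per kb). The ranges over the 4 samples overlapped between neighbours in this order, except that the lowest value of Tmpo was above the highest of Ankle2 and the lowest of Gmcl1 above the highest of Syne1. The median of all tested genes with a known exon length was 5.60 CPM per kb, so that Syne1 alone among the members lay below it, at the 16.1 percentile, and Sun1 lay at the 90.4 percentile. Syne1 is read over 40.49 kb of exon and Syne2 over 26.73 kb, from short and giant isoforms whose reads were summed, which lowers a level per kb where only short forms are made.

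**Figure D1:**
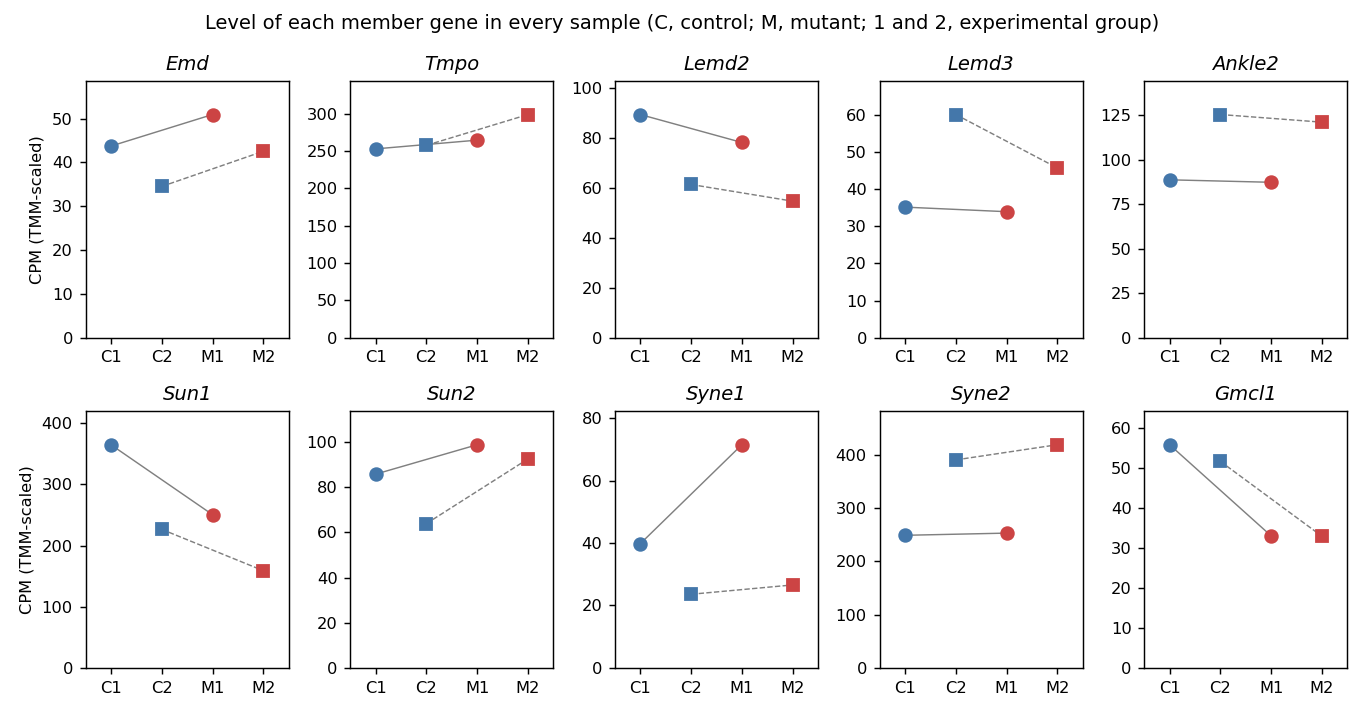
Level of each of the 10 genes in CPM after TMM scaling (vertical axes, each starting at 0) in control 1, control 2, mutant 1 and mutant 2 (horizontal axes, C1, C2, M1 and M2). Points are single samples and lines join the control and mutant of an experimental group. Gmcl1 was at 55.8 and 51.6 CPM in the controls and 33.0 and 32.9 CPM in the mutants, whereas most other genes were separated by experimental group.

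To ask whether loss of lamin B1 changed these genes, mutants were compared with controls in a model that also held the experimental group. In this fit, 1 of the 10 members passed the threshold as lower (Gmcl1), beside 4.30% of all tested genes. As higher 0 passed, beside 1.28% of all tested genes (edgeR likelihood-ratio test). No member passed as higher under edgeR's quasi-likelihood test or DESeq2 either. At an unadjusted p under 0.05 there were 4 members, of which Gmcl1 and Sun1 were lower and Sun2 and Syne1 higher. Of the 10 fold changes 5 were negative and 5 positive, with a median of 0.01 on the log2 scale compared with -0.01 for all genes tested. The median size regardless of sign was 0.24, compared with 0.26 for all genes. Both mutants lay below both controls for 1 member (13.3% of all genes) and above them for 2 members (12.6% of all genes). The ratio of mutant to control had the same sign in both experimental groups for all 10 members, compared with 62.7% of all genes. Some of these log2 ratios were very small, as for Ankle2 (-0.02 and -0.05) and Syne2 (0.02 and 0.10), and the agreement in sign was not tested. The share over all genes includes genes measured less precisely than the members (median SE 0.258 compared with 0.185).

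Gmcl1, the mouse germ cell-less homologue, encodes a nuclear envelope BTB-domain protein that binds emerin and LAP2 and serves as an adaptor of cullin-3 ubiquitin ligases. It lies at chr6:86691768-86733383 on the minus strand (GRCm38), with 14 exons in its longest transcript. It had 1290 counts in control 1 and 760 in its littermate mutant 1 (55.8 and 33.0 CPM), with 1083 in control 2 and 485 in mutant 2 (51.6 and 32.9 CPM). The mutants were close to each other, the controls were close to each other, and the genotypes did not overlap.

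In the fit, Gmcl1 fell by 0.71 on the log2 scale (SE 0.18, 95% interval -1.06 to -0.35), to 0.613 times its control level (edgeR adjusted p = 0.00453). It ranked 387 of 15438 genes by p. The ratios were -0.76 and -0.65 in experimental groups 1 and 2, and the gene did not pass for experimental group (log2 fold change of group 2 over group 1 -0.06, SE 0.18, adjusted p = 0.845). Under edgeR's quasi-likelihood test it passed (adjusted p = 0.0342), under DESeq2 it did not (log2 fold change -0.70, adjusted p = 0.0707), and without the replicate block it did not (adjusted p = 1). Over the 14 alternatives with a test the adjusted p ranged from 0.00315 to 1 and 8 passed, with log2 fold changes between -0.76 and -0.64 over all 16.

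The 250 bases upstream of the RefSeq start sites (GRCm38.p6) were searched on both strands for 4 motifs. These were CCCNNGGG (Ebf-type) and TAATTA (homeodomain-type), which name factor families active in olfactory neurons, and TTTCCCGC and TTTGGCGC (E2F-type). CCCNNGGG and TAATTA read the same on both strands, and none of the 4 contains another. Of the 10 members 9 had an entry, with 13 windows in all. Among 32851 windows of all genes, 11.8% held CCCNNGGG, 4.84% TAATTA, 0.890% TTTCCCGC and 0.420% TTTGGCGC. The 13 windows held a single match, in Tmpo. The window of Gmcl1 is shown because this gene passed the test, and it held none of these letters; it spans chr6:86733379-86733628 on the minus strand and has a GC content of 64.8%, all in lower case.
Gmcl1: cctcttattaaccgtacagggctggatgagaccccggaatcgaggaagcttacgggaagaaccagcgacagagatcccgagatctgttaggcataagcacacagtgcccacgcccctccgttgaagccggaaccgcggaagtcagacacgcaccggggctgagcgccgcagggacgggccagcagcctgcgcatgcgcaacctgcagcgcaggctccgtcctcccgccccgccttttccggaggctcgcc

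Sun1 and Sun2, the SUN-domain proteins of the inner nuclear membrane, had fold changes of opposite sign. Sun1 (chr5:139200637-139249840, plus strand), which also holds meiotic telomeres at the envelope, was at 364.9 CPM in control 1 and 250.5 CPM in its littermate mutant 1, and at 226.5 CPM in control 2 and 158.9 CPM in mutant 2. Each mutant was below its own control, but mutant 1 was above control 2, so the genotypes overlapped. Its log2 fold change was -0.53 (SE 0.22, 95% interval -0.95 to -0.10), with ratios of -0.54 and -0.51 in experimental groups 1 and 2, and it did not pass (edgeR adjusted p = 0.160). Sun1 passed under 1 of 14 alternatives with a test, DESeq2 (log2 fold change -0.52, adjusted p = 0.00513). The 1 member called lower by DESeq2 was therefore Sun1 and not Gmcl1.

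Sun2 (chr15:79724070-79742536, minus strand), which binds lamin A and the same nesprins, was at 85.8 CPM in control 1 and 98.8 CPM in its littermate mutant 1, and at 63.9 CPM in control 2 and 92.5 CPM in mutant 2. Both mutants were above both controls. Its log2 fold change of 0.37 (SE 0.17, 95% interval 0.04 to 0.70) did not pass (edgeR adjusted p = 0.229), and the ratios were 0.20 and 0.53 in experimental groups 1 and 2.

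Measured against each other within a sample, and per kb of exon, Sun1 was 3.04 times the level of Sun2 in control 1, 2.53 times in control 2, 1.81 times in mutant 1 and 1.23 times in mutant 2. Both mutants had a lower ratio than both controls. On the log2 scale the ratio changed by -0.75 in experimental group 1 and by -1.05 in experimental group 2. An exact two-sided permutation test over the 4 samples, which does not use the pairing, gave p = 0.333, the smallest p that its 6 relabellings allow. As a ratio within a sample it does not depend on library scaling. The summed levels of mature and of immature neuron markers both had the order of samples of Sun1 itself. This order was control 1, mutant 1, control 2, mutant 2, and 12.7% of all tested genes shared it. The immature sum was carried by Tubb3 (1242 and 547.7 CPM in controls, 985.1 and 481.2 CPM in mutants). No other immature marker had this order, and Dcx and Dpysl3 were higher in experimental group 2 (edgeR likelihood-ratio test).

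The upstream windows of both SUN genes are shown because their transcripts had opposite signs. They held none of the 4 motifs, and are 70.0% (Sun1, chr5:139200387-139200636, plus strand, the upstream one of 2 start sites) and 70.8% GC (Sun2, chr15:79742537-79742786, minus strand).
Sun1: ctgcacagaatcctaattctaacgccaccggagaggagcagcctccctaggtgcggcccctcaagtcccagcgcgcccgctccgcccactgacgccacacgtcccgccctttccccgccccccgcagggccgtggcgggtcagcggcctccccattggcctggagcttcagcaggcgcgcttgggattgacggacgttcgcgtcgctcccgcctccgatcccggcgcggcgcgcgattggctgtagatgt
Sun2: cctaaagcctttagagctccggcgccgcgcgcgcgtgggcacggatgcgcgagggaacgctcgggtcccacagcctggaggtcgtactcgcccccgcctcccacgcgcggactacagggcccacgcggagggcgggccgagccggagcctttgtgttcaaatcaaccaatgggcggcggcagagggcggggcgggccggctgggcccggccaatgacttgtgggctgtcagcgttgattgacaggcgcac

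**Figure D2:**
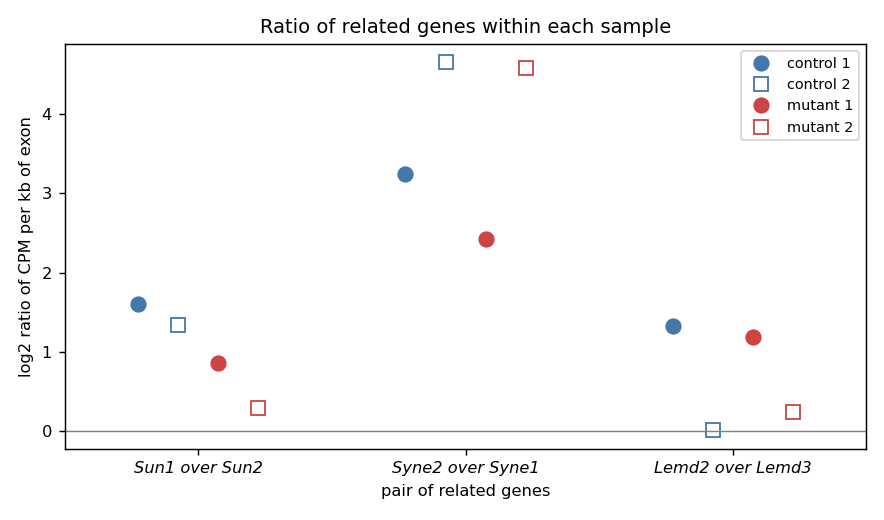
Log2 ratio of CPM per kb of exon (vertical axis) for 3 pairs of related genes (horizontal axis), with 1 point per sample (blue, controls; red, mutants; filled circles, experimental group 1; open squares, experimental group 2). The ratio of Sun1 to Sun2 was lower in both mutants than in both controls, whereas the other pairs were separated by experimental group.

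Syne1 and Syne2 encode nesprin-1 and nesprin-2, whose KASH domains meet the SUN proteins and whose giant isoforms reach actin. Syne1 (chr10:5020917-5551482, minus strand, 146 exons in the longest transcript) was at 39.8 CPM in control 1 and 71.5 CPM in its littermate mutant 1, and at 23.6 CPM in control 2 and 26.6 CPM in mutant 2. The level in mutant 1 stood far above the other samples, and mutant 2 lay between the controls. Its log2 fold change was 0.52 (SE 0.21, 95% interval 0.10 to 0.94, edgeR adjusted p = 0.158), made up of ratios of 0.84 and 0.17 in experimental groups 1 and 2.

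A background of reads in mutant 1, estimated from 3748 genes silent in the other samples, amounted to 143.4 counts over the exons of Syne1, or 8.70% of its count there, compared with 0.466% to 3.02% for the other members. With this background subtracted, the log2 fold change of Syne1 was 0.50 (edgeR adjusted p = 0.181). Without mutant 1, in a fit of genotype alone, it turned to -0.26 (adjusted p = 1).

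Syne2 (chr12:75818134-76110926, plus strand, 115 exons) was at 248.7 CPM in control 1 and 252.8 CPM in its littermate mutant 1, and at 390.1 CPM in control 2 and 418.6 CPM in mutant 2. Samples of experimental group 2 were high in both genotypes, and the genotypes overlapped. Its log2 fold change between genotypes was 0.06 (SE 0.23, 95% interval -0.39 to 0.52, edgeR adjusted p = 0.956). Per kb, Syne2 was 9.48 times the level of Syne1 in control 1, 25.1 times in control 2, 5.36 times in mutant 1 and 23.9 times in mutant 2. The ratio was higher in both samples of experimental group 2 than in both of experimental group 1.

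Of the LEM-domain genes, none of 5 passed for genotype in the edgeR fit, under the quasi-likelihood test or under DESeq2, 0 had an unadjusted p under 0.05 in the edgeR fit, and their median log2 fold change was -0.04. Emd (chrX:74254687-74261548, plus strand) encodes emerin, which is lost in X-linked Emery-Dreifuss muscular dystrophy. It was at 43.7 CPM in control 1 and 51.0 CPM in its littermate mutant 1, and at 34.5 CPM in control 2 and 42.6 CPM in mutant 2. Each mutant was above its own control, and mutant 2 lay between the controls. The log2 fold change was 0.26 (SE 0.18, 95% interval -0.10 to 0.62, edgeR adjusted p = 0.550). A pseudogene on the same strand, Gm14686, overlaps 13.6% of the exon sequence of Emd and had no count of its own here, so reads of the overlap cannot be told apart. Antisense genes overlap at most 3.98% of the exons of the other members.

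Tmpo (chr10:91147571-91181315, minus strand) encodes the LAP2 proteins, whose membrane forms bind lamin B and whose soluble alpha form works with lamin A and the retinoblastoma protein. It was at 252.7 CPM in control 1 and 264.4 CPM in its littermate mutant 1, and at 257.5 CPM in control 2 and 298.7 CPM in mutant 2. Both mutants were above both controls, by small margins in experimental group 1. The log2 fold change of 0.14 (SE 0.22, 95% interval -0.29 to 0.57) did not pass (edgeR adjusted p = 0.862). The order of samples was that of the summed progenitor and cell cycle markers, which 4.0% of all tested genes shared.

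Tmpo carried the only motif match among the 13 windows, TTTCCCGC, in 1 of its 2 windows and 195 bases upstream of the start. The window of the downstream start site is shown with the match in capitals (chr10:91170551-91170800, minus strand, 46.0% GC).
Tmpo: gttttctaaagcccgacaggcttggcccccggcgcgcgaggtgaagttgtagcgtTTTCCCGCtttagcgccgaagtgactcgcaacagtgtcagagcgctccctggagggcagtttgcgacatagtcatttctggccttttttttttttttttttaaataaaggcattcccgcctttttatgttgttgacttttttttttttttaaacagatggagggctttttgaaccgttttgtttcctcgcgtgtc

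Lemd2 (chr17:27189600-27204469, minus strand) recruits the ESCRT machinery that seals the envelope after mitosis. It was at 89.3 CPM in control 1 and 78.1 CPM in its littermate mutant 1, and at 61.3 CPM in control 2 and 54.6 CPM in mutant 2. Samples of experimental group 1 were high, and mutant 1 was above control 2. The log2 fold change was -0.18 (SE 0.16, 95% interval -0.50 to 0.14, edgeR adjusted p = 0.685), with ratios of -0.19 and -0.17 in experimental groups 1 and 2.

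Lemd3 (chr10:120923413-120979332, minus strand) encodes MAN1, which restrains TGF-beta and BMP signals by holding receptor-regulated Smads. It was at 35.1 CPM in control 1 and 33.9 CPM in its littermate mutant 1, and at 60.1 CPM in control 2 and 45.7 CPM in mutant 2. Control 2 was highest, and the samples of experimental group 1 were lowest. The log2 fold change was -0.22 (SE 0.19, 95% interval -0.59 to 0.15, edgeR adjusted p = 0.655), and the ratios were -0.05 and -0.39 in experimental groups 1 and 2.

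Per kb, Lemd2 was 2.51 times the level of Lemd3 in control 1 and 2.27 times in mutant 1, compared with 1.01 times in control 2 and 1.18 times in mutant 2. The ratio thus followed the experimental group and not the genotype.

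Ankle2 (chr5:110231004-110256651, plus strand) acts at the end of mitosis, when it favours removal of phosphate from BAF. It was at 88.6 CPM in control 1 and 87.3 CPM in its littermate mutant 1, and at 125.3 CPM in control 2 and 121.0 CPM in mutant 2. Littermates were nearly equal, with ratios of -0.02 and -0.05, and the samples of experimental group 2 were high. The genotype log2 fold change was -0.04 (SE 0.18, 95% interval -0.38 to 0.31, edgeR adjusted p = 0.969).

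**Figure D3:**
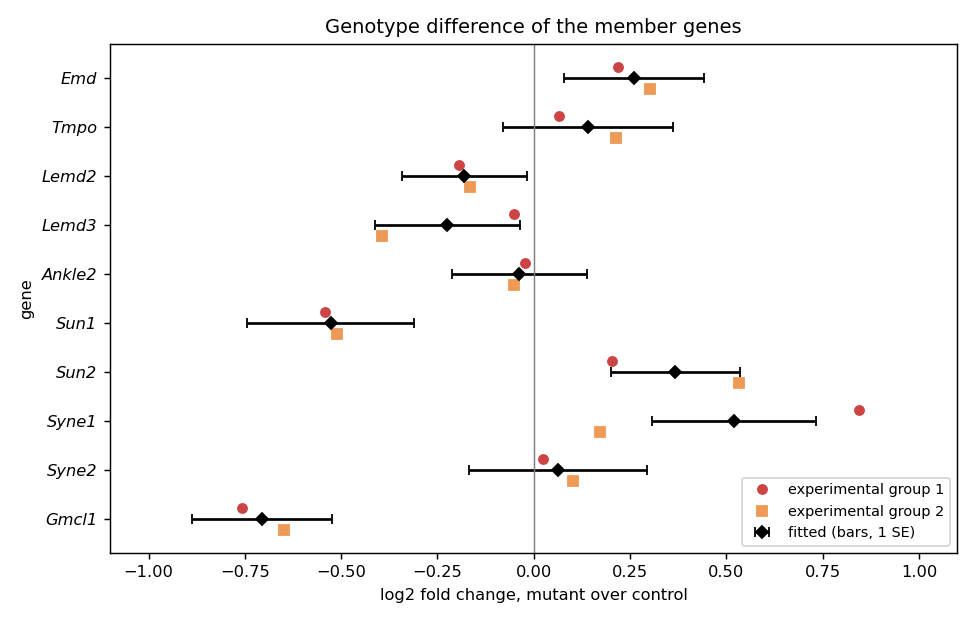
Log2 fold change of mutant over control (horizontal axis) for the 10 genes (vertical axis). Black diamonds are the fitted values with bars of 1 SE, circles and squares are the ratios in experimental groups 1 and 2. Gmcl1 at -0.71 was the gene that passed the threshold, and Syne1 had the widest gap between its ratios (0.84 and 0.17).

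The experimental group separated the members more than genotype did. The same held over all tested genes, of which 4.30% passed as lower and 1.28% as higher for genotype. For the experimental group coefficient 6 of 10 members passed, beside 31.6% of all tested genes, 3 higher and 3 lower in experimental group 2 (edgeR likelihood-ratio test). The median size of this coefficient was 0.51 on the log2 scale, compared with 0.50 for all tested genes. Higher in experimental group 2 were Syne2 (log2 fold change 0.69, SE 0.23, adjusted p = 0.0127), Lemd3 (0.60, SE 0.19, adjusted p = 0.00671) and Ankle2 (0.49, SE 0.18, adjusted p = 0.0222). Lower were Syne1 (-1.09, SE 0.21, adjusted p = 6.63e-06), Sun1 (-0.67, SE 0.22, adjusted p = 0.00928) and Lemd2 (-0.53, SE 0.16, adjusted p = 0.00577). Both directions occurred within the LEM-domain family and within the LINC complex. The 4 others did not pass, with values of -0.30 for Emd, -0.26 for Sun2, -0.06 for Gmcl1 and 0.10 for Tmpo.

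Marker levels also differed between the experimental groups. From highest to lowest, Lemd2 had the order of Sun1 (control 1, mutant 1, control 2, mutant 2). The summed mature and the summed immature neuron markers shared it, the latter sum carried by Tubb3. Emd and Syne1 shared the order of the summed horizontal basal cell markers (mutant 1, control 1, mutant 2, control 2). Of all tested genes, 5.6% had this order. The basal sum was carried by Krt5 and Krt14, whereas Trp63 and Egfr were higher in experimental group 2 (edgeR likelihood-ratio test). Syne2 had the order of the summed sustentacular markers (mutant 2, control 2, mutant 1, control 1), found in 11.6% of all tested genes. These orders over 4 samples are descriptions, and the part of the markers in them was not tested.

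**Figure D4:**
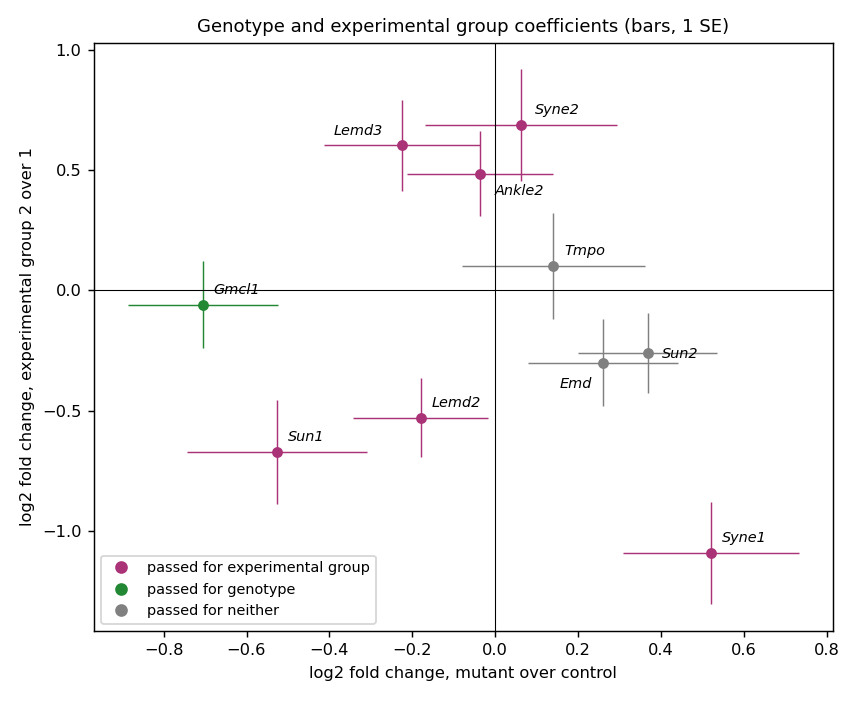
Fitted log2 fold change between genotypes (horizontal axis) and between experimental groups (vertical axis) for the 10 genes, with bars of 1 SE. Purple genes passed for experimental group, the green gene for genotype and grey genes for neither. Syne1 lies lowest at -1.09 and Gmcl1 lies near 0 on the vertical axis.

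Partners of these proteins were then compared, from 8 lists holding 69 genes in the count tables, of which 67 were tested. In the edgeR fit for genotype, 1 passed as lower, beside 4.30% of all tested genes, and 0 passed as higher, beside 1.28%. Under the quasi-likelihood test the counts were likewise 1 and 0, and under DESeq2 they were 2 (Klc2 and Klc1) and 0. The median log2 fold change of the 67 was -0.04, and 40 of them were negative, compared with 7884 of all 15438 tested genes. Both mutants lay below both controls for 8 genes (13.3% of all genes) and above them for 8 (12.6% of all genes). The ratio of mutant to control had the same sign in both experimental groups for 41 of the 67 (62.7% of all genes).

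The cytoskeletal partners of nesprins held the gene that passed. Klc2, a kinesin light chain, was at 249.7 CPM in control 1 and 157.7 CPM in its littermate mutant 1, and at 129.6 CPM in control 2 and 84.4 CPM in mutant 2. Each mutant was below its own control, and mutant 1 was above control 2. Its log2 fold change was -0.64 (SE 0.19, edgeR adjusted p = 0.0213), and its order of samples was that of Sun1. Of the 14 genes of this list 11 had negative values, with a median of -0.25, from dynein and dynactin subunits (Dync1h1, -0.25 and Dctn1, -0.26) to Fhod1 (-0.43), a formin that binds nesprin-2. Nde1 (0.49), which works with dynein in dividing cells, had the highest value, and none of these 4 genes passed (edgeR adjusted p = 0.756, 0.687, 0.777 and 0.307).

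Partners at the chromatin side did not pass. The 11 genes for BAF itself, its kinases and phosphatases and other chromatin partners had a median of 0.12, 9 of them positive, and Banf1 was at 29.0 and 32.6 CPM in the controls and 41.6 and 33.3 CPM in the mutants (log2 fold change 0.28, SE 0.21, edgeR adjusted p = 0.610). Among 10 ESCRT genes 9 were negative with a median of -0.11, but their median ratio was -0.20 in experimental group 1 and 0.015 in group 2. Chmp7, the partner of Lemd2, was at 86.8 and 63.6 CPM in the controls and 61.1 and 67.1 CPM in the mutants. The 10 genes of the torsin system and other inner membrane proteins had a median of -0.04, with values from -0.63 to 0.47, and Tor1aip1 (LAP1), an activator of torsins, was at 27.8 and 33.4 CPM in the controls and 31.7 and 56.3 CPM in the mutants.

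The remaining lists did not pass either. The 6 ubiquitin ligase and E2F partners of Gmcl1 had a median of -0.03, and Cul3, the cullin it binds, was at 74.6 and 158.8 CPM in the controls and 76.0 and 147.7 CPM in the mutants, high in experimental group 2 in both genotypes. For the 6 Smads the median was 0.05, with Smad1 at 43.6 and 44.6 CPM in the controls and 42.7 and 44.7 CPM in the mutants. The other lamins were Lmnb2 and Lmna, at -0.02 and 0.12 on the log2 scale (SE 0.17 for both, edgeR adjusted p = 0.987 and 0.849).

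Of 9 germline or tissue-restricted LEM and LINC genes in the tables, 7 were tested and none passed. Syne4, nesprin-4 of hair cells and secretory epithelia, was at 22.5 and 19.0 CPM in the controls and 19.3 and 28.0 CPM in the mutants. The KASH protein gene Lrmp was at 28.3, 29.8, 13.4 and 29.5 CPM in control 1, control 2, mutant 1 and mutant 2, so that mutant 1 alone was low. Gmcl1l, the retrogene copy of Gmcl1, had 0 counts in all 4 samples. Each sample's floor of 3 counts corresponds to 0.127 to 0.202 CPM, which covers counting error only. Sun5, a testis gene, had counts in mutant 1 alone. These were 3 counts (0.130 CPM after TMM scaling), which is the floor itself. The background in that library was 3.54 counts per kb, and Sun5 has 1.23 kb of exon.

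**Figure D5:**
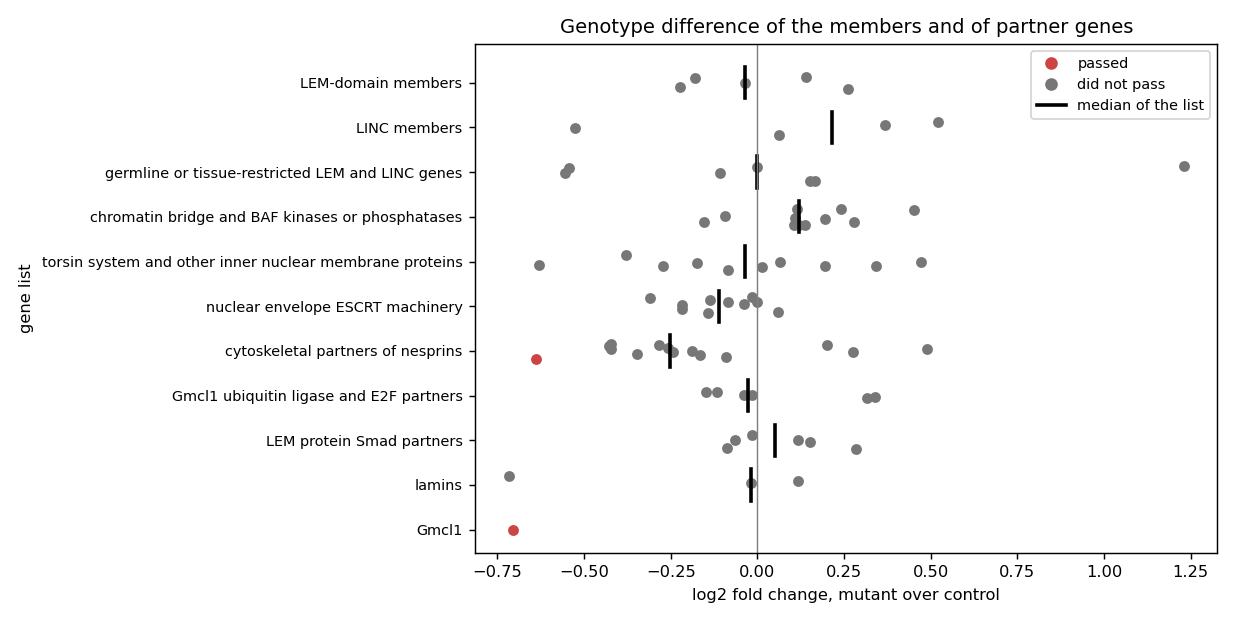
Log2 fold change of mutant over control (horizontal axis) of the genes in each list (vertical axis), with 1 point per tested gene and a black bar at the median of the list. Red points passed the threshold, namely Gmcl1 (-0.71) and Klc2 (-0.64), and the median of the cytoskeletal partners lies at -0.25.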

How the data were processed

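The authors deposited raw read counts per gene symbol for 4 samples, made with HTSeq from single-end reads of ribosome-depleted, DNase-treated RNA, aligned to mm10 with TopHat2 2.0.7 after Bowtie2 2.0.6 had removed ribosomal reads (versions from the submitters' processing notes). The strand setting and annotation of the counting were not given in the sources used here. The 5 tally lines entered neither library sizes nor tests (reads outside genes were 22.1% to 39.4% of uniquely aligned reads).

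Apart from the tally lines, which the code of the study retained among its rows, the model was that of the study, with edgeR 4.0.16 in R 4.3.3, genes over 1 CPM in 2 or more samples, TMM factors, tagwise dispersions, terms for genotype and experimental group (replicate block), a likelihood-ratio test and Benjamini-Hochberg adjustment over 15438 genes at a threshold of 0.05. Ratios within an experimental group used log2 CPM with a prior count of 2. The pairing comes from the labels, and same-numbered samples deviated together across genes (r = 0.52). Every pair of samples differed by more than sampling noise (chi-square per degree of freedom 47.0 to 278). GENCODE vM21 gave positions and exon lengths for 98.0% of symbols. Scripts were tested on simulated data.

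Genes named are the 10 members, Lmnb1, list genes past the threshold and, for lists without one, a defining gene by its values. Klc1, Dync1h1, Dctn1, Fhod1, Nde1, Lrmp, Gmcl1l and Sun5 were chosen after their values were seen. Members, lists and motifs were chosen with earlier results of these data known. Alternatives comprised the quasi-likelihood test of edgeR, DESeq2 1.42.0, no replicate block, RLE factors, no filter, over 1 CPM in all 4 samples, tally lines kept, thinning, offsets on length and GC content, background subtraction in mutant 1, and samples left out.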

Additional observations from a re-analysis of the deposited data

Results flagged for a closer look

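In mutant 1, 39.41% of uniquely aligned reads fell outside genes, more than in either control. These tallies enter no comparison of the report and were used in 1 alternative, which kept them as genes. Among the members, Syne1, with the longest exon sequence, had the largest share of its mutant 1 count, 8.70%, at the background density of 3.54 counts per kb pooled over the silent genes of that library, where the median gene had 1.80 counts per kb. Subtraction of this background moved the log2 fold change of Syne1 from 0.52 to 0.50.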

How the results depend on the processing

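Of 140 member values under alternatives with a test, 125 kept their direction and side of the threshold, 6 of Gmcl1 lost the threshold (DESeq2, no replicate block and the 4 fits that left out a sample), 1 of Sun1 passed it (DESeq2), and 8 reversed. With no replicate block (edgeR likelihood-ratio test), 0 genes were lower and 6 higher, 0 members and 0 partner genes were lower, 0 members had an unadjusted p under 0.05, and Gmcl1 did not pass (adjusted p = 1, unadjusted p = 0.0964). The quasi-likelihood test gave 115 higher genes compared with 197, and DESeq2 2 lower partner genes compared with 1. The median log2 fold change of the members was 0.038 with no filter, -0.018 with offsets on length and GC content and 0.046 after background subtraction.

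Leaving out 1 sample left a fit of genotype alone with 1 residual degree of freedom, so these settings also lack the replicate block, and the lone sample is assumed to vary like the others. They gave 0 to 5 lower and 3 to 33 higher genes, 0 lower members, 0 lower partner genes and member medians from -0.06 to 0.199. With single experimental groups included, the log2 fold changes ranged from -0.263 to 0.274 for Ankle2, -0.472 to 0.126 for Lemd2, -0.587 to 0.221 for Lemd3, -0.263 to 1.21 for Syne1 and -0.308 to 0.474 for Syne2. The reversals arose without control 1 (Lemd2 and Syne2), without control 2 (Ankle2 and Lemd3), without mutant 1 (Ankle2 and Syne1) and without mutant 2 (Lemd2 and Syne2), and the cause was not tested. The other members also moved, from -0.905 to -0.135 for Sun1, 0.2 to 0.592 for Sun2, 0.113 to 0.447 for Emd, 0.065 to 0.221 for Tmpo and -0.757 to -0.639 for Gmcl1. With an experimental group left out no test remains, and the 20 member values kept their sign. The median of all genes lay between -0.049 and 0.05 under every alternative run. With 2 samples per genotype, a p that misses the threshold does not show equal levels.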
